A study of Mus musculus with 6 samples.

Results

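The inhibitor of DNA binding genes Id1, Id2, Id3 and Id4 were followed in ribosome-bound mRNA from the adult mouse dentate gyrus. It was pulled down with a tag directed to Gli1+ radial-glial neural stem cells (RGLs). These 4 genes were taken by name from 37620 genes counted, and all 4 passed the filter on low counts that left 15056 genes for testing. The groups were 3 samples from Gli1CreERT2:Rpl22HA f/+:Klf9 +/+ mice and 3 samples from Gli1CreERT2:Rpl22HA f/+:Klf9 f/f mice. All mice of both groups were 2 to 3 months old, carried the tamoxifen-dependent Gli1 Cre driver and the RiboTag allele, and received 3 tamoxifen injections at intervals of 12 hr. The groups therefore differed in the floxed Klf9 alleles, whose exon 1 is removed by Cre in the cells that express it. Every library came from a pool of 3 mice (6 dentate gyri) killed 4 days after tamoxifen ended. In RiboTag, recombined cells make ribosomes with an HA tag, so that pulling down the tag brings along the mRNAs bound to these ribosomes. The study describes this driver as marking RGLs and astrocytes, so the samples may hold both, together with the first progeny of RGLs. Markers of other cells were also measured in them, so the Id levels are those of the samples and not of RGLs alone. The library names place 2 samples of each genotype in series 22 and 1 sample of each genotype in series 32. Replicate numbers are running numbers within a genotype, where replicate 3 of each genotype is the sample of series 32.

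Id proteins are helix-loop-helix (HLH) proteins that lack the basic region needed to contact DNA. They bind the E proteins and so keep these from pairing with proneural basic HLH (bHLH) factors, which start neuronal differentiation. Id genes are classic direct targets of BMP signaling, in which BMP receptors phosphorylate Smad proteins that enter the nucleus with Smad4. In adult neural stem cells, BMP signaling and Id proteins are associated with quiescence. Levels of the Id mRNAs are therefore used as a readout of BMP signaling and of the quiescent state.

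The 4 genes lie on 4 chromosomes of mm9. Id1 (ENSMUSG00000042745) lies on the plus strand of chromosome 2 from 152561987 to 152563146. Id2 (ENSMUSG00000020644) lies on the minus strand of chromosome 12 from 25778666 to 25780957. Id3 (ENSMUSG00000007872) lies on the plus strand of chromosome 4 from 135699412 to 135701670. Id4 (ENSMUSG00000021379) lies on the plus strand of chromosome 13 from 48356796 to 48359405. The coding sequences are most alike in the part that encodes the HLH domain, which lies in the first exon of each gene. A coding stretch of 120 bases is shown for each gene. It was chosen, in a search from Id1 without gaps, as the stretch with the most bases shared by all 4 genes. Capitals mark the bases that are the same in all 4 genes, and sequences are from the mm9 transcripts of GENCODE M1, written 5′ to 3′ on the coding strand.
Id1, chr2:152562256-152562375, plus strand: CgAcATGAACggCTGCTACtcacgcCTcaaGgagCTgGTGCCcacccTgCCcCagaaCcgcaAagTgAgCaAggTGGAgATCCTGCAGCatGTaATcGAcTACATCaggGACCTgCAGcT
Id2, chr12:25780646-25780765, minus strand: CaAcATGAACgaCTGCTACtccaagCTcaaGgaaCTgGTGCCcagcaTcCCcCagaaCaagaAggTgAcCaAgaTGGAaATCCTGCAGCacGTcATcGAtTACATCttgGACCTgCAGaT
Id3, chr4:135699919-135700038, plus strand: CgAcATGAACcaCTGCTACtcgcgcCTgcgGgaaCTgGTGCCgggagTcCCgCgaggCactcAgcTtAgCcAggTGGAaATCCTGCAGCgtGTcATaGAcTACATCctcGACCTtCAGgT
Id4, chr13:48357064-48357183, plus strand: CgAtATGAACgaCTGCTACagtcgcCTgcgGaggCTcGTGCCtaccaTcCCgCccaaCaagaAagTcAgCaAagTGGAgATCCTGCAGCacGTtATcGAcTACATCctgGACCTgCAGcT
Within this stretch, 70 of the 120 positions (58.3%) held the same base in all 4 genes. Over the whole coding sequence, aligned pairs of Id genes were identical at 69.0% (Id2 and Id3) to 75.4% (Id1 and Id2) of aligned bases. The longest run of bases shared by any pair of full transcripts was 19, between Id2 and Id3. No stretch of 50 bases, the read length, was shared by any of the 6 pairs (0 in each), so a full-length read without errors belongs to a single Id gene. Outside the 4 genes, Id2 had a near-copy on chromosome X. It matched the annotated gene Gm6175 at 87.8% identity over 755 bases and an adjoining stretch with no annotated gene at 95.6% over 294 bases. Of the 1221 windows of read length in the Id2 transcript, 13 (1.1%) were also found in that region of chromosome X. Gm6175 had 0 to 7 reads per sample, which does not cover the stretch with no annotated gene. Shorter matches lay on chromosome 5 for Id2, at 95.4% over 65 bases and 85.7% over 84 bases, and on chromosome 3 for Id4, at 92.0% over 50 bases. Id1 and Id3 had 0 matches. Exons of Id4 overlap those of the antisense lincRNA A330033J07Rik by 171 bases. Because counting ignored strand, reads in the overlap cannot be assigned to either gene, and A330033J07Rik had 71 to 142 reads per sample against 12478 to 34158 for Id4.

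Between 21594714 and 66343759 reads per sample fell on genes, and the 2 samples of series 32 were the shallowest. These 2 samples also had more reads outside genes, 10.9% and 12.2% against 6.3% to 7.7% in series 22. Reads without a unique alignment made up 13.6% and 13.0% of them, against 7.6% to 9.0% in series 22. Levels are given as CPM (read counts scaled to library size, after TMM scaling), and positive log2 fold changes mean a higher level in Klf9 f/f. A gene was called at a change of at least 1.2-fold with an unadjusted p under 0.05, the threshold in the methods of the study. By this rule 1.82% of the genes tested were called higher and 2.50% lower in Klf9 f/f, and 0 genes had a Benjamini-Hochberg adjusted p under 0.05 by edgeR's quasi-likelihood test (650 had an unadjusted p under 0.05). DESeq2, run as an alternative, gave 39 genes at an adjusted p under 0.05 and 677 at an unadjusted p under 0.05, with no Id gene among the 39. For Klf9, the targeted gene, the 3 Klf9 +/+ samples held 201, 204 and 139 CPM, against 114, 121 and 120.01 CPM for the Klf9 f/f samples, each in the order of replicates 1, 2 and 3, which is kept throughout. Its groups did not overlap, which held for 3.39% of the genes tested. The fitted difference was -0.59 on the log2 scale (standard error 0.15) and had an adjusted p = 0.844 by edgeR. Within series 22 the log2 difference of Klf9 was -0.78, and within series 32 it was -0.21. The gene count covers both exons, and exon 2, which is not the exon deleted, holds 2229 of the 3263 bp counted, so these levels do not measure the deletion itself. Of the 10 RGL markers listed, 9 were tested and 1 passed as higher, and their summed level was 1746 to 2402 CPM in Klf9 +/+ and 2039 to 2257 CPM in Klf9 f/f. Markers of other cells were present too. Over the samples of both genotypes, Snap25 of neurons held 240 to 408 CPM and Mbp of oligodendrocytes 157 to 404 CPM. Ttr of the choroid plexus held 4.58 to 2273 CPM. Enrichment for RGL mRNA by the pull-down was not tested.

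All 4 Id genes were abundant. Id read counts ran from 2002 to 47558 per gene and sample, so counting error is small beside the spread between samples. On the scale of CPM per kb of exon, which allows genes of different length to be set side by side, the Id genes lay between the 94.0th and the 99.7th percentile of tested genes in every sample. Id2 had the highest mean at 395 ± 150.2 CPM per kb (SD, n = 6 samples of both genotypes). Id4 followed at 301 ± 23.9, Id3 at 171 ± 21.9 and Id1 at 96.8 ± 22.6 CPM per kb (SD, n = 6).

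The order of the paralogs was tested by the log2 ratio of each pair within each sample, with an exact two-sided sign-flip permutation test over the 6 samples. The smallest p this test allows is 0.0313, and p-values were adjusted over the 6 pairs. Id1 was below each of the other 3 genes in all 6 samples (exact permutation test, adjusted p = 0.0375 for each pair). Its level per length was 0.254 of that of Id2, 0.557 of that of Id3 and 0.315 of that of Id4. Id3 was below Id4 in all 6 samples, with a mean log2 ratio of -0.82 ± 0.23 (SD, n = 6; exact permutation test, adjusted p = 0.0375). Id2 was above Id3 in all 6 samples, with a mean log2 ratio of 1.13 ± 0.57 (SD, n = 6; same exact test and adjusted p). Id2 and Id4, the neighbours at the top, did not differ beyond their spread. Their mean log2 ratio was 0.31 ± 0.62 (SD, n = 6; exact permutation test, adjusted p = 0.313). Id2 was the higher of the pair in the 4 samples of series 22 and the lower in the 2 samples of series 32. Without scaling by length, this ratio was -0.07. The order rests on the exon lengths of the mm9 annotation, which were 1160 bp for Id1, 1270 bp for Id2, 1791 bp for Id3 and 1660 bp for Id4.

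**Figure D1:**
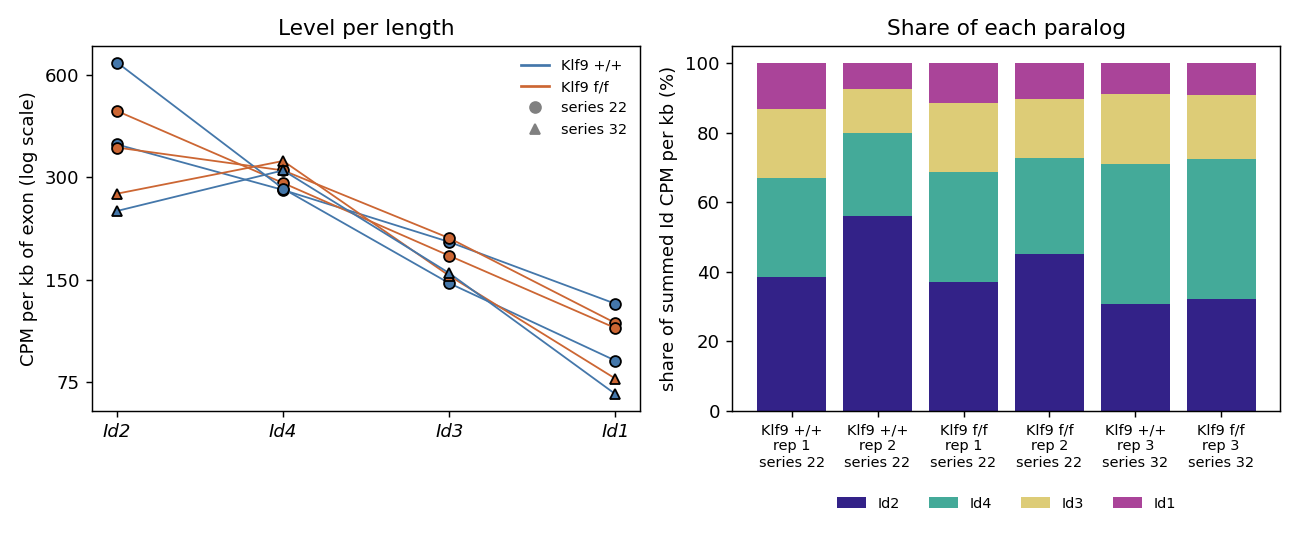
Left, level of each Id gene in CPM per kb of exon on a log scale, with 1 line per sample, colored by genotype and marked by library series. Right, share of each paralog in the summed Id level of each sample. Id1 was the lowest in all 6 samples, and Id2 and Id4 changed places between series 22 and series 32.

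Id4 was the steadiest of the 4 genes. The Klf9 +/+ samples held 457, 461 and 521 CPM, the Klf9 f/f samples 521, 479 and 556 CPM. The highest Klf9 +/+ sample and the middle Klf9 f/f sample were level, so the groups overlapped, and the highest sample was 1.22 times the lowest. The mean was 479.6 ± 36.3 CPM in Klf9 +/+ and 519 ± 38.6 CPM in Klf9 f/f (SD, n = 3). The fitted log2 fold change was 0.11 (standard error 0.13; edgeR adjusted p = 1.00), and its 95% interval ran from -0.18 to 0.40, which is 0.886 to 1.32 times the Klf9 +/+ level. The log2 difference was 0.12 within series 22 and 0.09 within series 32. Under all 17 alternative fits Id4 stayed between 0.06 and 0.17.

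Id3 also varied little and overlapped between genotypes. The Klf9 +/+ samples held 347, 262 and 281 CPM, and the Klf9 f/f samples held 356, 316 and 276 CPM. The lowest sample was a Klf9 +/+ sample and the highest a Klf9 f/f sample, both of series 22, while the 2 samples of series 32 lay close together. The fit gave 0.09 on the log2 scale (standard error 0.15; edgeR adjusted p = 1.00), with a 95% interval from -0.25 to 0.43. The log2 difference was 0.15 in series 22 and -0.03 in series 32. Within series 22 the 2 Klf9 +/+ samples themselves differed by 0.40 on the log2 scale.

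Id1, a classic target of BMP signaling, was measured at 148, 101 and 80.3 CPM in the Klf9 +/+ samples. The Klf9 f/f samples held 129.9, 126 and 89.1 CPM. In series 22 both Klf9 f/f samples lay between the Klf9 +/+ samples, and in each genotype the sample of series 32 was the lowest. The means were 109.6 ± 34.7 and 115 ± 22.4 CPM (SD, n = 3), and the fit gave 0.08 on the log2 scale (standard error 0.16; edgeR adjusted p = 1.00). Its 95% interval ran from -0.28 to 0.44, or 0.821 to 1.35 times the Klf9 +/+ level. The log2 difference was 0.07 in series 22 and 0.15 in series 32, while the Klf9 +/+ samples of series 22 differed by 0.55.

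Id2 had the widest spread. The Klf9 +/+ samples held 475, 827 and 303 CPM, whereas the Klf9 f/f samples held 465, 596 and 341 CPM. The Klf9 +/+ group held both the highest and the lowest sample, 2.73-fold apart, and enclosed all Klf9 f/f samples. The fitted difference was -0.14 on the log2 scale (standard error 0.22; edgeR adjusted p = 1.00), and its 95% interval ran from -0.64 to 0.36, or 0.641 to 1.28 times the Klf9 +/+ level. The log2 difference was -0.25 in series 22, where the Klf9 +/+ samples differed by 0.80, and 0.17 in series 32. Klf9 +/+ replicate 2, the sample highest in Id2, was also highest in Neurod1 at 667 CPM, against 110.4 to 318 CPM in the other samples, and in Tcf4 at 2211 CPM. Neurod1 is a factor of newborn granule neurons and Tcf4 an E protein, both singled out after their values were seen. Other neuronal genes went both ways in that sample. Neurod6 and the granule neuron markers Neurod2, Prox1 and Rbfox3 were also at their highest, while Neurog2 was at its lowest with 204 CPM. The other granule neuron markers were not at their highest. These were Camk2a, Dock10, Calb1, Snap25 and Syt1, at 177, 33.6, 65.7, 359 and 133 CPM. Their part in the Id2 level was not tested. Without that sample the log2 fold change of Id2 was 0.16, that of Id1 -0.06 and that of Id3 -0.04, so 3 of the 4 genes changed sign.

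**Figure D2:**
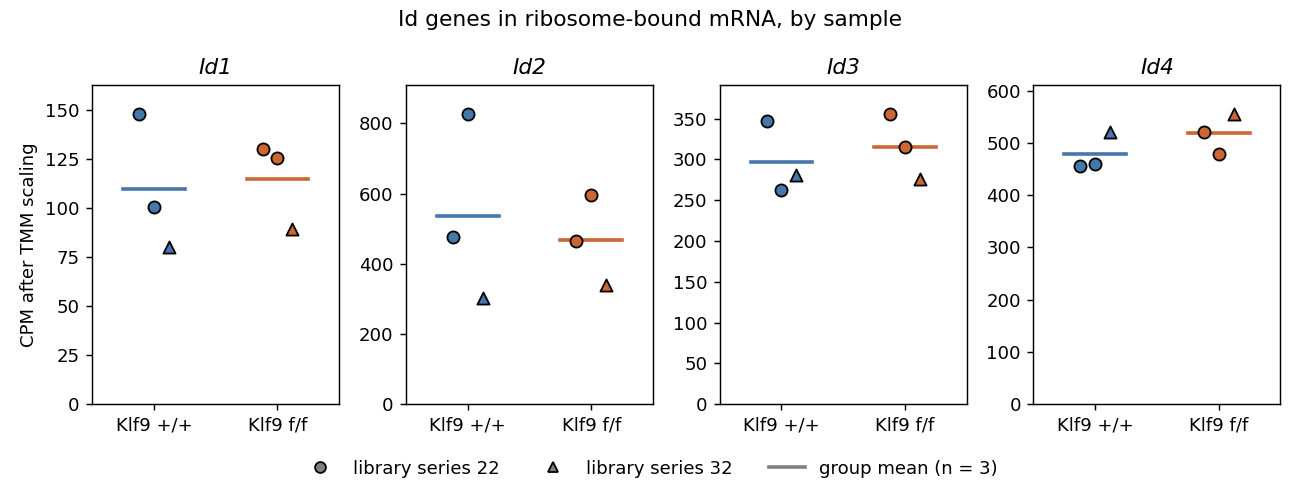
CPM after TMM scaling for each Id gene and sample, by genotype (n = 3 each), with circles for library series 22, triangles for series 32 and lines for group means. For each of the 4 genes the Klf9 f/f samples fall within or across the range of the Klf9 +/+ samples.

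Of the 4 Id genes, 0 were called in either direction by the rule that called 4.32% of the genes tested. Their median log2 fold change was 0.08, with 3 higher and 1 lower, beside 0.00084 over all genes tested. The intervals of Id1, Id3 and Id4 leave out a change of 1.5-fold in either direction, and that of Id2 leaves out a rise but not a fall of that size. Whether the genotype effect differed between the library series was tested as an interaction in edgeR across all genes. The interaction was 0.11 for Id1, 0.46 for Id2, -0.17 for Id3 and -0.03 for Id4 on the log2 scale, with standard errors of 0.36 to 0.48 (adjusted p = 1.00 for each). These intervals are wide, since series 32 holds a single sample of each genotype, and 0 genes passed the interaction at an adjusted p under 0.05 (231 had an unadjusted p under 0.05).

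The fitted difference between library series was larger in size than that between genotypes for all 4 genes, but only Id1 and Id2 passed a test of it. From the same edgeR fit, in a comparison added after the data were seen, Id1 was lower in series 32 with a log2 difference of -0.57 (standard error 0.17, adjusted p = 0.0358). Id2 was lower in series 32 by a log2 difference of -0.86 (standard error 0.24, adjusted p = 0.0280). All 4 samples of series 22 lay above both samples of series 32 for these 2 genes. Id3 differed by -0.20 (standard error 0.16, adjusted p = 0.369) and Id4 by 0.17 (standard error 0.13, adjusted p = 0.363), and neither passed. At an adjusted p under 0.05, 29.5% of the genes tested differed between the series, and what differed in the handling of the series cannot be told apart from this difference. With it the makeup of the Id pool shifted. The share of Id2 in the summed Id level per length was 37.0% to 56.0% in series 22 and 30.7% and 32.2% in series 32, and that of Id4 was 23.9% to 31.7% in series 22 and 40.1% and 40.3% in series 32.

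Ratios between paralogs do not depend on the scaling between samples, so they were also set side by side by genotype. The mean log2 ratio of Id1 to Id4 was -1.66 ± 0.54 in Klf9 +/+ and -1.67 ± 0.39 in Klf9 f/f (SD, n = 3), and that of Id3 to Id4 was -0.81 ± 0.27 and -0.83 ± 0.25. The ratio of Id2 to Id4 moved most, from 0.43 ± 0.81 to 0.20 ± 0.51, which is less than its spread. Within series 22 the ratio of Id2 to Id4 differed between the genotypes by -0.37 on the log2 scale, and within series 32 by 0.08. Over the 6 pairs, the exact permutation test gave unadjusted p-values of 0.8 to 1 and adjusted p-values of 1, where 3 samples against 3 cannot go below 0.1. This test did not take the library series into account. The summed Id level was 970.5 ± 191.5 CPM per kb in Klf9 +/+ and 956 ± 108 CPM per kb in Klf9 f/f (SD, n = 3).

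E proteins are the binding partners of Id proteins, and 0 of the 3 genes were called. Per kb of exon, the mean over the 6 samples was 136.6 CPM for Tcf4, 46.7 for Tcf3 and 13.0 for Tcf12. The summed Id level was 4.42 to 5.81 times the summed E protein level per length over the 6 samples, at 4.85 ± 0.23 in Klf9 +/+ and 5.00 ± 0.72 in Klf9 f/f (SD, n = 3). This is a ratio of mRNA and says nothing of protein. Of the 6 proneural and glial bHLH genes, 1 was called as higher and 0 as lower. Over the 15 E protein, bHLH, Hes and Hey genes this is 6.67%, beside 4.32% of all genes tested, and rests on a single gene. The called gene was Olig1, a factor of the oligodendrocyte lineage, with 25.8, 22 and 29.1 CPM in the Klf9 +/+ samples and 35.2, 26.6 and 50.5 CPM in the Klf9 f/f samples. Its groups overlapped, and the fit gave 0.51 on the log2 scale (standard error 0.17; edgeR adjusted p = 1.00). The 6 Hes and Hey genes, a family that includes transcriptional repressors downstream of Notch, had log2 fold changes of -0.03 to 0.10 with 0 called. Hey1, which BMP signaling can also induce, was at 0.10 (standard error 0.13).

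In the BMP pathway itself, 3 of 27 genes tested were called, all as lower in Klf9 f/f, and 0 had an adjusted p under 0.05. This is 11.1% of the genes beside 4.32% of all genes tested. All 3 called genes were expressed at low levels. Among the ligands, Bmp2 and Bmp4 were called, and all 5 tested had negative values with a median log2 fold change of -0.20. Within series 22, however, Bmp5 and Bmp6 were higher in Klf9 f/f, at 0.28 and 0.09, and within series 32 they were at -1.07 and -0.99. All 5 ligands were highest in Klf9 +/+ replicate 3, though Bmp4 only by 9.44 CPM against 9.04 CPM in the next sample. Klf9 +/+ replicate 3 also had the highest summed choroid plexus and meningeal marker levels, 2747 and 1716 CPM. The part of those cells in the ligand values was not tested. Bmp4 measured 9.04, 5.95 and 9.44 CPM in the Klf9 +/+ samples and 5.89, 4.22 and 3.87 CPM in the Klf9 f/f samples, so that the groups did not overlap. Its log2 difference was -0.55 within series 22 and -1.28 within series 32. The fit gave -0.79 on the log2 scale (standard error 0.27; edgeR adjusted p = 1.00) for Bmp4 and -0.77 (standard error 0.22; edgeR adjusted p = 0.959) for Bmp2, whose groups overlapped. Of the 5 antagonists tested, which bind BMP ligands outside the cell, 0 were called, and the sixth, Grem1, did not pass the filter on low counts. Of the 7 receptors, only Acvrl1 was called, at -1.02 on the log2 scale (standard error 0.45; edgeR adjusted p = 1.00). Acvrl1 is a type I receptor of endothelial cells, and all 10 endothelial markers were also lower in Klf9 f/f; their part in this call was not tested. The neural receptors Bmpr1a and Bmpr1b had log2 fold changes of 0.04 and 0.46, with standard errors of 0.14 and 0.21. The 4 Smads that carry the signal had values between -0.14 and 0.05, with 0 called.

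Other genes that BMP signaling is known to induce gave no call either (0 of 6), with a median log2 fold change of -0.04, 3 higher and 3 lower. Bambi, a decoy receptor, stood at 44.5, 42.1 and 31.7 CPM in Klf9 +/+ and 41.3, 47.5 and 33.4 CPM in Klf9 f/f, with a log2 fold change of 0.05 (standard error 0.13). The inhibitory Smads Smad6 and Smad7, which are feedback inhibitors of the pathway, had log2 fold changes of -0.66 and -0.34 with standard errors of 0.34 and 0.22. Atoh8, a bHLH factor, was at 0.37 (standard error 0.20), and Msx1 and Msx2, homeobox factors, were at -0.14 and 0.08. Smad6 in Klf9 +/+ replicate 3, at 16.6 CPM, was above the 8.31 CPM of the next sample.

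**Figure D3:**
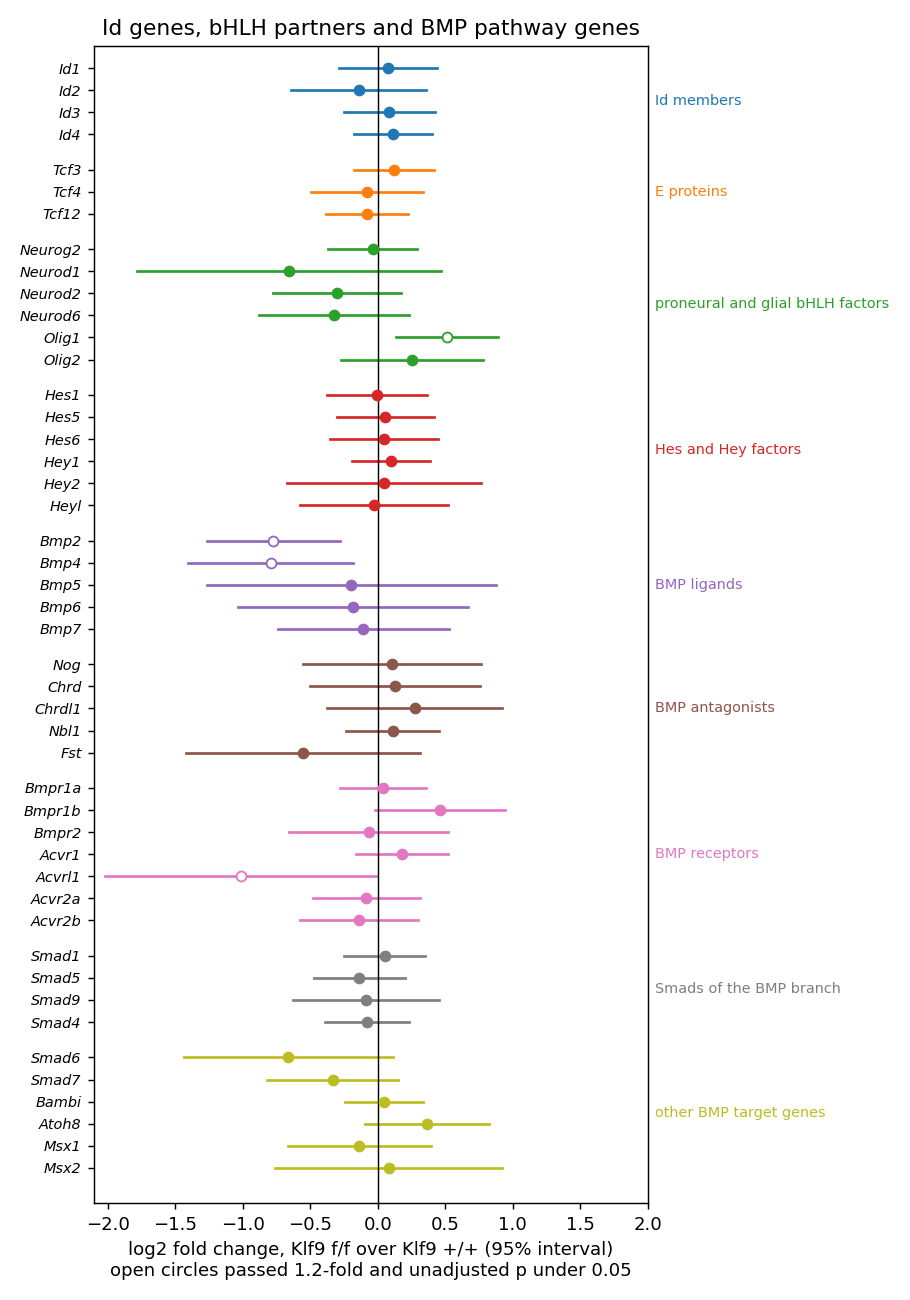
Log2 fold change of Klf9 f/f over Klf9 +/+ with its 95% interval from the edgeR fit, for the Id genes, their E protein partners, other bHLH genes and the BMP pathway, with open circles for called genes. The intervals of all 4 Id genes cross 0, and the called genes are Olig1, Bmp2, Bmp4 and Acvrl1.

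Of the 23 quiescence and activation genes, 3 were called (13%), beside 4.32% of all genes tested, and 0 had an adjusted p under 0.05. Of 12 quiescence genes, Clu was called as higher (log2 fold change 0.41, standard error 0.18) and Cdkn1c, a cyclin-dependent kinase inhibitor, as lower (-0.76, standard error 0.15). Clu encodes clusterin, which astrocytes also make in quantity. Cdkn1c held 39.9, 35.2 and 85.5 CPM in Klf9 +/+ and 26.4, 23.2 and 40.5 CPM in Klf9 f/f, so its groups overlapped. Its highest value came from Klf9 +/+ replicate 3, the sample with the highest summed choroid plexus and meningeal marker levels. The part of those cells in the Cdkn1c values was not tested. Of 11 activation genes, Egfr, the epidermal growth factor receptor, was called as higher (0.39, standard error 0.16). Their medians were 0.11 and 0.06, and 10 of the 12 quiescence and 7 of the 11 activation genes had positive values. Over all genes tested, 7553 of 15056 did. Mcm2, whose protein the study used to mark activated RGLs, was not called, at 0.28 (standard error 0.13). It held 154, 169 and 170 CPM in Klf9 +/+ and 214, 176 and 209 CPM in Klf9 f/f. Its groups did not overlap, nor did those of Sox9 on the quiescence list, which held for 3.39% of the genes tested. The proliferation marker Mki67 had a log2 fold change of -0.16 and Ccna2, the cyclin of S phase, one of 0.02, with standard errors of 0.14 each.

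Id genes are also expressed by cells other than RGLs, such as astrocytes and endothelial cells, and markers listed for such cells differed with the genotype. The astrocyte markers do not separate astrocytes from RGLs. Gfap, which is among them, was also used by the study to identify RGLs, and Sox9 is also on the quiescence list. In bulk samples, fewer cells of a type and less RNA per cell cannot be told apart. Over all genes tested, 1.82% were called as higher and 2.50% as lower. All 10 astrocyte markers had positive log2 fold changes and 4 were called, with a median of 0.36. Their summed level was 12074 to 15013 CPM in Klf9 +/+ and 15102 to 18078 CPM in Klf9 f/f. All 10 endothelial markers had negative values and 3 were called, with a median of -1.06 and a summed level of 132 to 352 CPM in Klf9 +/+ and 52.8 to 209.9 CPM in Klf9 f/f. Of the 9 mural cell markers 4 were called as lower, and of the 8 meningeal markers 1 was, which with the endothelial markers makes 8 of 27 (29.6%). All 11 choroid plexus markers were called as lower, at a summed 148 to 2747 CPM in Klf9 +/+ and 28.2 to 422 CPM in Klf9 f/f. No marker of these lists was at 0 in any sample, and the part of these cells in the Id values was not tested.

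The Id values were recomputed with these markers as covariates beside the series, which left 2 residual degrees of freedom. The covariates came from the same 6 samples and themselves differed with the genotype. These fits therefore cannot tell the part of the marker levels from that of the genotype. With the endothelial, mural and meningeal level, Id2 was at -0.54 with a standard error of 0.21, past the calling rule but with an edgeR adjusted p = 0.371, while Id1, Id3 and Id4 were at 0.25, 0.30 and 0.17. With the choroid plexus level, Id2 was at 0.61, Id1 at -0.53 and Id3 at -0.26, all opposite in sign to the fit without it, with standard errors of 0.26 to 0.45. With the astrocyte marker level, which can also follow RGLs, Id1, Id2 and Id3 were at -0.08, 0.20 and -0.07. Id4 kept its sign under each of the 3 covariates, at 0.06 to 0.17, and no Id gene had an adjusted p under 0.05 in any of them.

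**Figure D4:**
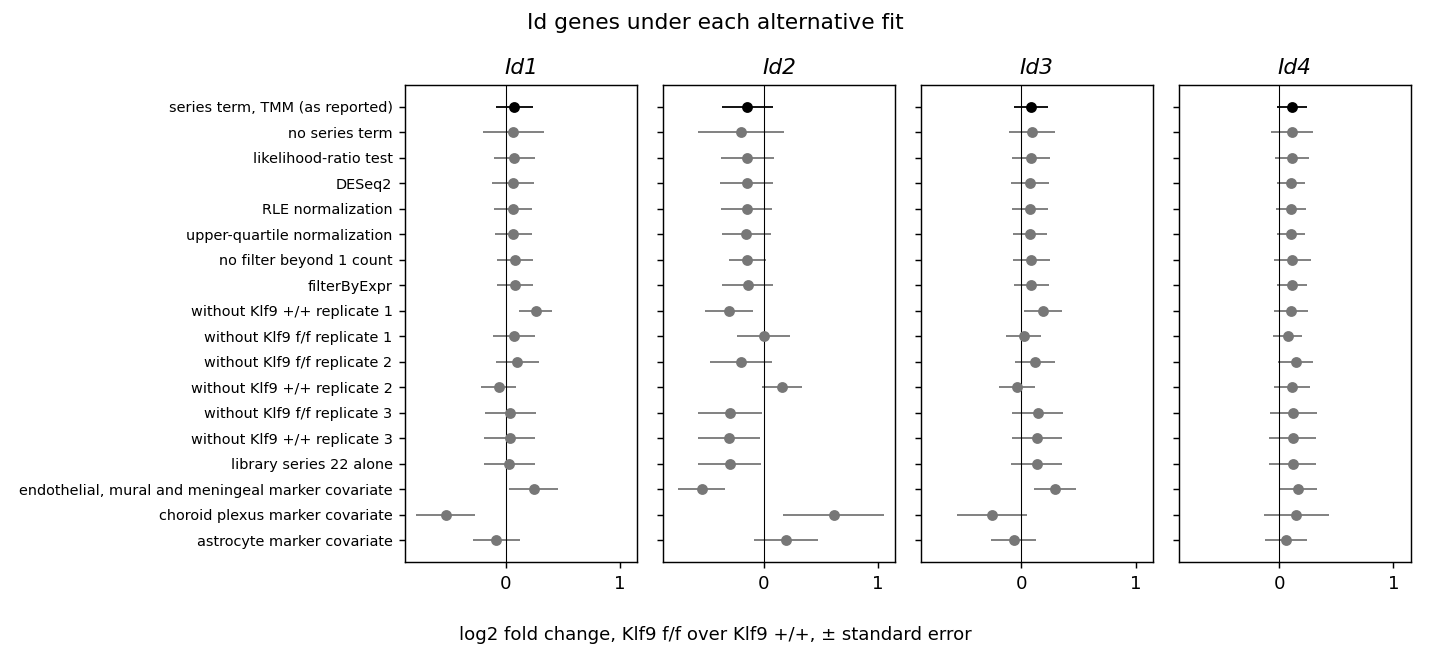
Log2 fold change of each Id gene with its standard error in the fit as reported (black) and in 17 alternative fits (grey). Id4 stayed between 0.06 and 0.17, whereas Id1, Id2 and Id3 fell on both sides of 0.

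The bases just before the start sites are shown for Id2, Id3 and Id4, the Id genes matched in the RefSeq promoter table (build GRCm38.p6), because they hold letters tied to BMP Smads and to Klf factors. Each covers the 250 bases before the annotated start, 5′ to 3′ on the strand of the gene. Capitals mark the letters GGCGCC and CAGAC, which Smad proteins bind, and CACCC and GGGCGG, which Klf and Sp factors bind, on either strand. Overlapping matches are joined.
Id2, chr12:25096093-25096342, minus strand: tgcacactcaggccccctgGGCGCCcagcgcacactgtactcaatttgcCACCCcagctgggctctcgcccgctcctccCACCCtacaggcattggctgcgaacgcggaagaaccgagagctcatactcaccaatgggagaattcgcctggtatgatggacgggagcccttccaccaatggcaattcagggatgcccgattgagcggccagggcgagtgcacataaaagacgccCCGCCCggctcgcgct
Id3, chr4:136143572-136143821, plus strand: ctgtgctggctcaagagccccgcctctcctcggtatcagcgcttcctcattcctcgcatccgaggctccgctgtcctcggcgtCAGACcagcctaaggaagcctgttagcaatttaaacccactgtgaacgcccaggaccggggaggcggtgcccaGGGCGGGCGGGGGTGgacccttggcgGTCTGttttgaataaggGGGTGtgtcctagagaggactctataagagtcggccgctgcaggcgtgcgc
Id4, chr13:48260866-48261115, plus strand: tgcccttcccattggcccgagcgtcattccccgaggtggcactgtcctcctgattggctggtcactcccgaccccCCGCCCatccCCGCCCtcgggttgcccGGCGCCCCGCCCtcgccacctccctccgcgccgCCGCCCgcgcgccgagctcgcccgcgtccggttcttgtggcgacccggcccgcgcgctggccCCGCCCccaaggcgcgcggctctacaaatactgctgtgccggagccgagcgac
GGCGCC occurred 1 time before Id2 and 1 time before Id4, and 9.6% of the 32851 promoters in the table hold it in the same window. CAGAC occurred 2 times before Id3, and 42.2% of promoters hold it, 11.7% with 2 or more. CACCC occurred 2 times before Id2 and 2 times before Id3, against 52.0% of promoters with a match and 21.1% with 2 or more. GGGCGG occurred 1 time before Id2, 2 times before Id3, where the matches overlap, and 5 times before Id4. Of all promoters 32.7% hold GGGCGG, 16.7% hold 2 or more, and 1.9% hold 5 or more. G and C made up 62.8% of the windows of Id2 and Id3 and 75.6% of that of Id4. The promoters they were set beside were not matched for this content. The E-box letters CANNTG, bound by bHLH factors, occurred 1 time before Id2 and were not found before Id3 or Id4, against 66.2% of promoters with a match. These matches describe the letters of the windows, and no binding was measured.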

How the data were processed

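By the methods of the study, 50 bp reads were aligned by the authors to mm9 with STAR, and HTSeq assigned them to genes ignoring strand. The deposited values are whole-number counts without normalization for 37620 Ensembl genes in 6 samples. The 5 HTSeq summary lines, 16.4% to 26.6% of each file, were left out. Names, exon lengths and coordinates came from GENCODE M1, also mm9, and promoters from RefSeq tables of GRCm38.p6.

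The 15056 genes that exceeded 1 unscaled CPM in any sample were tested in edgeR 4.0.16 (R 4.3.3; quasi-likelihood fit, TMM), with the library series as a term and 3 residual degrees of freedom. Adjusted p-values follow Benjamini and Hochberg over all genes tested. The standard error is the log2 fold change divided by the square root of F, and 95% intervals use the moderated degrees of freedom. Log2 CPM used a prior count of 2. The fits were first tested on simulated counts. Samples were grouped by the genotype in their labels. Each replicate is a pool of mice, and p-values measure the spread between these pools.

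Genes with a mean of at least 10 CPM were ranked by how closely they followed each Id gene, and the nearest 5 are named. Other genes named are Klf9 and members of the lists. The members and lists were chosen with earlier results of these data known. Alternatives were other tests (DESeq2 1.42.0 among them), normalizations, filters, samples left out and marker covariates. Copies of the Id genes were sought with BLAST+ 2.17.0, and coding sequences were aligned with Biopython 1.88. Motifs were counted in the 250 bases before the start, a shorter window than the planned one, which also took in the 50 bases after it. Protein sequences were not used here. A member of the bHLH list is not reported here and does not enter its counts.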

Additional observations from a re-analysis of the deposited data

How the results depend on the processing

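Over 17 alternative fits for each of the 4 Id genes, 58 of 68 log2 fold changes kept their sign and stayed uncalled, 9 changed sign and 1 was called, with a smallest adjusted p of 0.371. Leaving out 1 sample at a time, the range was -0.06 to 0.26 for Id1, -0.30 to 0.16 for Id2, -0.04 to 0.19 for Id3 and 0.07 to 0.15 for Id4, and the changes of sign came without Klf9 +/+ replicate 2 (-0.062, 0.16 and -0.039 for Id1, Id2 and Id3). With the choroid plexus covariate, Id1, Id2 and Id3 were at -0.53, 0.61 and -0.26, and with the astrocyte covariate at -0.082, 0.20 and -0.068. With the endothelial, mural and meningeal covariate Id2 was called at -0.54. The causes were not tested. The calls over all genes moved more, from 274 higher and 376 lower to 50 and 163 with no series term, 513 and 926 with no filter beyond 1 count, 163 and 202 in series 22 alone, 785 and 779 with the endothelial, mural and meningeal covariate, and 137 and 666 with the astrocyte covariate. With the choroid plexus covariate 591 were lower. Leaving out samples, 130 to 493 were higher and 209 to 719 lower. The extremes came without Klf9 f/f replicate 1 (130 and 719), without Klf9 f/f replicate 2 (493 higher) and without Klf9 +/+ replicate 3 (176 and 209), and 220 were lower without Klf9 f/f replicate 3. Among the paralog ratios, Id2 over Id4 was -0.072 without length scaling. The other 5 kept their sign, but with the longest transcript as length Id1 over Id3 was -1.33, Id2 over Id3 0.65 and Id3 over Id4 -0.33, and without length scaling Id1 over Id3 was -1.47 and Id2 over Id3 0.64. No paired analysis was possible because the labels give no replicate numbers shared between the genotypes. With 3 samples a group, 1 sample can set the sign of changes as small as these.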

Other observations

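The Id genes did not follow each other closely across the 6 samples. Likeness was measured as the root mean square difference between log2 CPM profiles, each centered on its own mean, against 10382 other genes with a mean of at least 10 CPM. The nearest pair was Id1 and Id3, at 0.19 on the log2 scale, and 10.5% of the other genes were nearer to Id1 than Id3 was. Id3 and Id4 were 0.21 apart, and Id2 was 0.45 to 0.57 from the other 3 genes. The median distance of all genes was 0.37 from Id1, 0.51 from Id2, 0.30 from Id3 and 0.25 from Id4. The samples share library series and depth, so these distances are given as a description.

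The gene nearest to Id1 was Abhd6 at 0.023, followed by Cd9, Akr1b3, Sfxn1 and Copz2 at 0.048 to 0.059. Nearest to Id2 were Rwdd3, H1f0, Zfand6, Sh3gl3 and Gm11266, at 0.093 to 0.11. Nearest to Id3 were Ctsz, Acaa2, Amacr, Ccdc46 and Epha5, at 0.053 to 0.062. Nearest to Id4 were Ppp2r5d, Entpd6, Eml3, Pgd and Tmem43, at 0.029 to 0.035.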
